A study of Mus musculus with 12 samples.

Results

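Macrophage marker genes were followed in the hearts of mice that overexpress a mutant integrin-linked kinase (ILK) and of their wild type (WT) littermates. The 10 genes were Cd68, Csf1r, Adgre1 (Emr1 in the platform annotation), C1qa, C1qb, C1qc, Cd163, Mrc1, Lyz2 and Cx3cr1, each read from the probe sets that the annotation assigns to that gene and no other. This gave 15 of the 45037 probe sets on the array, of which 14 passed a filter on low values together with 22519 probe sets in all, and the tests cover 11189 genes. No marker gene differed between genotypes at an adjusted p under 0.05. All 45 pairs of markers had a correlation above 0 over the 12 hearts, and 15 passed the adjusted permutation test for Pearson's r. The median r was 0.72 among the 6 hearts numbered 1 to 6, and 0.40 to 0.77 with 1 of them left out. Among the 6 hearts numbered 7 to 12 it was 0.13 (-0.028 to 0.23 with 1 left out), and 13 pairs were below 0 there. The difference between the ranges was not tested.

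Hearts came from 3 ILKR211A Tg mice, 3 ILKS343D Tg mice and 6 WT mice, all C57BL/6 and 8 to 9 weeks old. Both transgenic (Tg) lines overexpress the named mutant of human ILK in the heart, but no source used here names the promoter. The WT titles form 2 sets of 3 hearts, spelled differently and called the WT first set and the WT second set here. The ILKS343D Tg hearts and the WT first set carry heart numbers 1 to 6, and the ILKR211A Tg hearts and the WT second set carry 7 to 12, so that line and range of heart numbers cannot be told apart when the lines are compared directly. The study's methods describe the arrays as R211A transgenic and control mice, with and without coronary ligation. The labels differ from that account, since they name no surgery and include ILKS343D Tg hearts. The labels were used here, and no comparison after ligation was made. Each array is 1 mouse, and p-values measure the spread between mice.

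Macrophages reside between the cardiomyocytes of the healthy heart, where they take up dying cells and debris, and blood monocytes add to them after injury. They need signals from CSF1 or IL-34 through the receptor encoded by Csf1r. They are also the main source of complement C1q in most tissues. In RNA from whole heart tissue, fewer macrophages and less RNA per macrophage cannot be told apart.

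The values are MAS5 signals on a linear scale, brought on each array to a 2% trimmed mean of 150, and the array medians were 41.5 to 49.1. Ilk itself had signals of 8223, 9553 and 8622 in ILKR211A Tg hearts and 3258, 3272 and 4016 in ILKS343D Tg hearts, against 551 to 657 in WT hearts. Replicate 1 of the WT first set carries a male label among females, yet its Xist signal was 718 and those of the other 11 hearts were 703 to 864. Its signal for the Y-linked Eif2s3y was 4.47, and those of the others were 0.636 to 8.17. Of the markers of other immune cells that have a probe set, 1 of 5 T cell genes, 2 of 4 B cell genes, 1 of 3 NK cell genes, 2 of 7 neutrophil genes, 2 of 4 dendritic cell genes and 3 of 5 mast cell genes passed the filter. All 6 cardiomyocyte markers passed, with summed signals of 67439 to 73918 in ILKR211A Tg hearts, 61482 to 68702 in ILKS343D Tg hearts and 64196 to 76918 in WT hearts.

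The promoter windows of 4 genes are shown because C1qb with C1qc and C1qc with Lyz2 were correlated over the hearts and Mrc1 had the highest correlation with the mean of the other markers. PU.1, a transcription factor that macrophages require, recognises a purine-rich GGAA core, and capitals mark GAGGAA or GGAAGT on either strand. The windows are the 250 bases before the RefSeq start in GRCm38.p6, written 5′ to 3′ on the strand of the gene. They are chr4:136886201-136886450 (minus strand) for C1qb, chr4:136892915-136893164 (minus strand) for C1qc, chr10:117282273-117282522 (minus strand) for Lyz2 and chr2:14229164-14229413 (plus strand) for Mrc1.
C1qb: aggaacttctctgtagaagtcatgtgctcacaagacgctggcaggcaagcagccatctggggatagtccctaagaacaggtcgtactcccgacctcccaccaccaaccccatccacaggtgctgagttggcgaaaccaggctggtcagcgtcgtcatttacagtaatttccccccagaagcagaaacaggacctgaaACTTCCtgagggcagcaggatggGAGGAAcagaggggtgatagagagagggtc
C1qc: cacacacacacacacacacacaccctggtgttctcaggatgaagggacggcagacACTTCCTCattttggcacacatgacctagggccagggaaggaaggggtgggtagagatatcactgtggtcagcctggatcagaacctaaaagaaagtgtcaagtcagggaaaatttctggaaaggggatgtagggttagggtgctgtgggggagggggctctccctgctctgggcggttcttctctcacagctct
Lyz2: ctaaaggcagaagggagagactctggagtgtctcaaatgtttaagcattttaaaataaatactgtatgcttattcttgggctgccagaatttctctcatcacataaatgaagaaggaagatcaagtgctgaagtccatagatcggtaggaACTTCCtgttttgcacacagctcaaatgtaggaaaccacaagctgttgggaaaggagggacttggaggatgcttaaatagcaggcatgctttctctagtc
Mrc1: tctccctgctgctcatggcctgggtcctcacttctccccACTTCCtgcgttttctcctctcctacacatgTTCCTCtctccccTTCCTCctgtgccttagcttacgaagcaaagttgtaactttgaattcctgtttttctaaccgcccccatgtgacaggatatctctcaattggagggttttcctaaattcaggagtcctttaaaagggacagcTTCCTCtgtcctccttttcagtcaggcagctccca

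RefSeq windows were matched by symbol for 7 of the 10 genes, and Csf1r, Adgre1 and C1qa are named only. GAGGAA was present in 4 of the 7 windows (Mrc1 at 3 places, C1qb, C1qc and Cd68), against 23.3% of all 32851 windows of this length. GGAAGT was present in 4 of 7 (Mrc1, C1qb, C1qc and Lyz2), against 19.7% of all windows, and in C1qc its match overlaps that of GAGGAA. The AP-1 form TGANTCA was found in 1 of 7 windows (Cd68, at 2 places), against 6.75% of all. All of these are matches of letters on either strand and not binding sites. The starts of C1qb and C1qc lie 6714 bases apart on chromosome 4.

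Across the 10 genes, 0 were called in ILKR211A Tg against WT hearts at an adjusted p under 0.05, against 0.206% of all genes tested, and 0 had an unadjusted p under 0.05, against 7.52% of all genes. In ILKS343D Tg against WT hearts 0 of 10 were called, against 0.00894% of all genes, and 1 had an unadjusted p under 0.05, against 3.79%. That count at an unadjusted p was 0 to 4 with 1 heart left out and 1 to 5 in the other alternatives. In ILKR211A Tg against ILKS343D Tg hearts 0 of 10 were called, against 0.152% of all genes, and 0 had an unadjusted p under 0.05 (0 to 2 with 1 heart left out and 0 to 3 otherwise), against 7.85%. No marker gene separated ILKR211A Tg from WT hearts (4.18% of all genes did) or ILKS343D Tg from WT hearts (1.99%). Cd68, Mrc1 and Lyz2 separated the ILKR211A Tg from the ILKS343D Tg hearts, 3 of 10 genes, against 14.5% of all genes.

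The median log2 fold change of the 10 genes was -0.0082 in ILKR211A Tg hearts relative to WT, with 5 genes above 0 and 5 below. In ILKS343D Tg hearts it was 0.16 relative to WT, with 8 above 0. These included Cx3cr1, whose mean signal was above the filter only in the ILKS343D Tg genotype. For ILKR211A Tg relative to ILKS343D Tg hearts the median was -0.18, with 1 above 0. The medians of all genes were -0.0014, -0.00077 and -0.0040 in the same order. The 95% confidence limits of single markers reached from a 0.690-fold to a 1.57-fold signal in ILKR211A Tg relative to WT hearts, and from 0.720-fold to 2.08-fold in ILKS343D Tg relative to WT hearts.

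**Figure D1:**
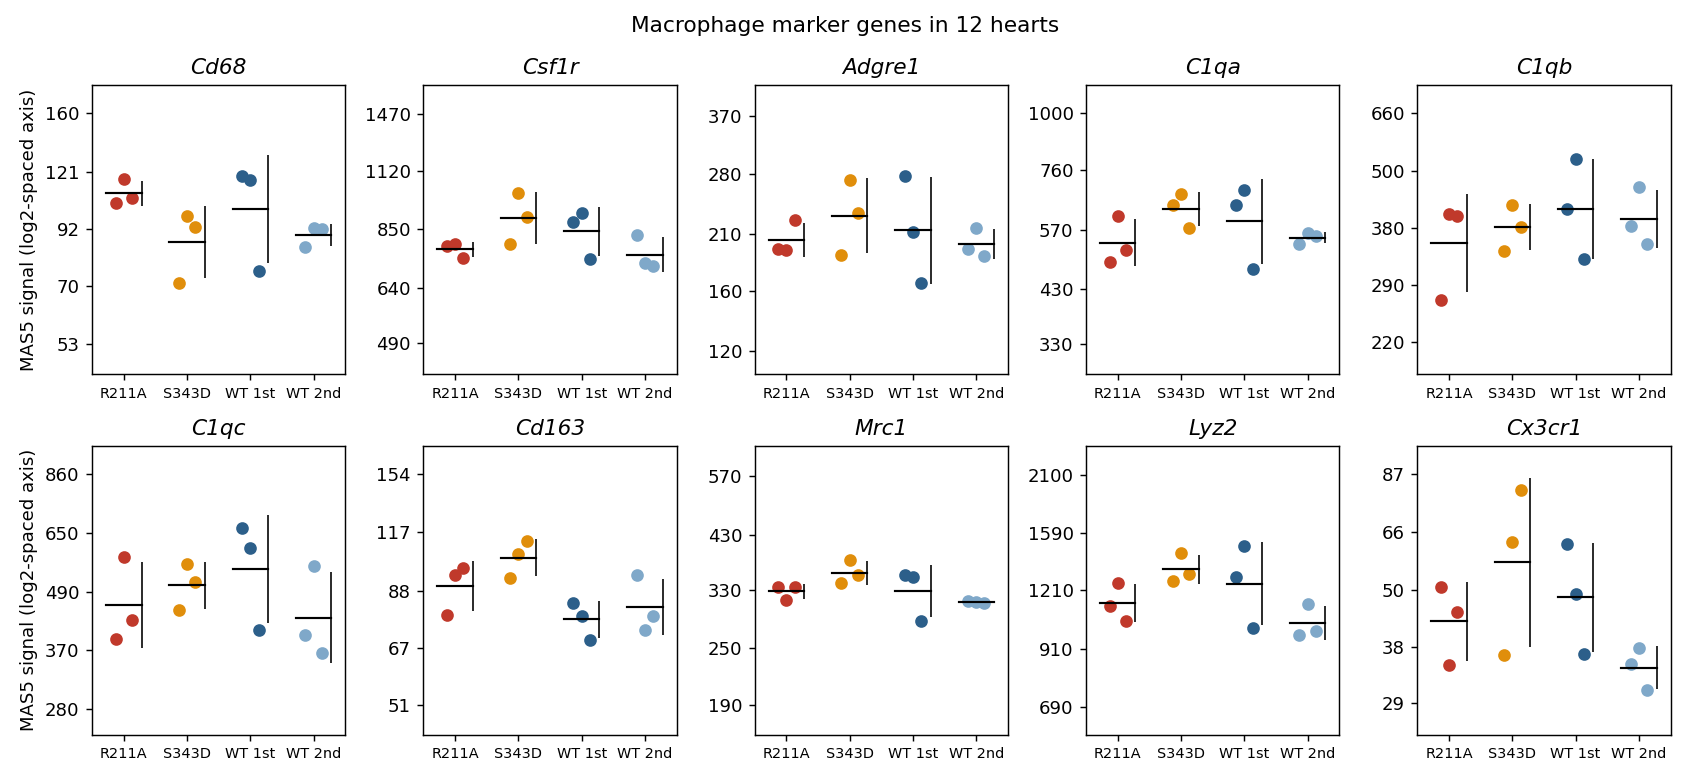
MAS5 signal (log2-spaced vertical axis that spans 4-fold in each panel) of the 10 marker genes in each heart of the ILKR211A Tg, ILKS343D Tg, WT first set and WT second set groups. Points are hearts, horizontal lines are means of the log2 signals and vertical bars are 1 SD either way on the log2 scale (n = 3 each); both Tg lines overlap the 6 WT hearts in every panel.

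Cd68 encodes macrosialin, a glycoprotein of the lysosome membrane. Its signals were 104, 117 and 107 in ILKR211A Tg hearts and 71.0, 97.8 and 93.0 in ILKS343D Tg hearts, against 75.1, 92.1 and 119 (lowest, median and highest) in WT hearts. The ILKR211A Tg hearts all lay above the ILKS343D Tg hearts and inside the WT range. Its log2 fold change was 0.20 for ILKR211A Tg against WT (SE 0.16, adjusted p = 0.861), -0.14 for ILKS343D Tg against WT (SE 0.16, adjusted p = 0.995) and 0.34 for ILKR211A Tg against ILKS343D Tg (SE 0.18, adjusted p = 0.641). The exact permutation p for the last was 0.1 (two-sided), the smallest that 3 against 3 hearts allow. Cd68 was the only marker with a higher mean in ILKR211A Tg than in ILKS343D Tg hearts.

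Lyz2 encodes the lysozyme of phagocytes. Signals were 1117, 1253 and 1044 in ILKR211A Tg hearts and 1263, 1443 and 1307 in ILKS343D Tg hearts, against 974, 1069 and 1496 in WT hearts. The ILKR211A Tg hearts all lay below the ILKS343D Tg hearts, and the WT hearts spanned both. The log2 fold change was 0.0010 for ILKR211A Tg against WT, 0.24 for ILKS343D Tg against WT (SE 0.12, adjusted p = 0.995) and -0.23 for ILKR211A Tg against ILKS343D Tg (SE 0.14, adjusted p = 0.690). Against the WT first set alone, the ILKS343D Tg value was 0.099. Lyz1 is a near-identical gene with a probe set of its own, so the Lyz2 signal is uncertain between the 2 genes.

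Csf1r encodes the receptor for CSF1 and IL-34. Its signals were 783, 789 and 739 in ILKR211A Tg hearts and 788, 1009 and 899.9 in ILKS343D Tg hearts, against 709.9, 779 and 916 in WT hearts. Only ILKS343D Tg replicate 2 lay outside the WT range. The log2 fold change was -0.043 for ILKR211A Tg against WT (SE 0.10, adjusted p = 0.963) and 0.17 for ILKS343D Tg against WT (SE 0.10, 95% limits -0.03 to 0.38, adjusted p = 0.995), or 0.092 against the WT first set alone. Adgre1 encodes F4/80, the adhesion receptor by which mouse macrophages are commonly stained. Its signals were 195, 195 and 224 in ILKR211A Tg hearts and 190.2, 272 and 232 in ILKS343D Tg hearts, against 166, 204 and 277 in WT hearts. Every Tg heart lay inside the WT range, and the log2 fold changes against WT were -0.017 (ILKR211A Tg, adjusted p = 0.993) and 0.15 (ILKS343D Tg, adjusted p = 0.995).

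The 3 C1q genes encode the A, B and C chains that assemble into the recognition part of complement component C1. C1qa had signals of 490.3, 611 and 519 in ILKR211A Tg hearts and 645, 678 and 577 in ILKS343D Tg hearts, against 473, 559.6 and 693 in WT hearts. C1qb had 269, 407 and 403 in ILKR211A Tg hearts and 341, 426 and 382 in ILKS343D Tg hearts, against 327, 400.2 and 529 in WT hearts. Replicate 1 of the ILKR211A Tg hearts was the lowest of the 12 for C1qb, while its other 2 replicates lay just above the WT median. C1qc had signals of 391, 579.5 and 428 in ILKR211A Tg hearts and 449, 559 and 514 in ILKS343D Tg hearts, against 366, 481 and 666 in WT hearts. All Tg values of C1qa and C1qc lay inside the WT range. The log2 fold changes of C1qa, C1qb and C1qc against WT were -0.091, -0.20 and -0.084 in ILKR211A Tg hearts (adjusted p = 0.919, 0.858 and 0.963) and 0.14, -0.092 and 0.054 in ILKS343D Tg hearts (adjusted p = 0.995 each).

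Cd163 encodes the scavenger receptor for haemoglobin bound to haptoglobin and is a marker of resident macrophages. It was the marker with an unadjusted p under 0.05. Its signals were 78.4, 95.05 and 98.2 in ILKR211A Tg hearts and 93.8, 105 and 112 in ILKS343D Tg hearts, against 69.7, 78.1 and 94.9 in WT hearts. The lowest ILKS343D Tg heart lay between the highest WT heart and the other 5. The log2 fold change was 0.38 for ILKS343D Tg against WT (SE 0.13, 95% limits 0.11 to 0.66, 1.31-fold, unadjusted p = 0.00956, adjusted p = 0.995), with an exact permutation p of 0.0476 (two-sided). Against the WT first set alone, which shares the range of heart numbers, it was 0.43. Without replicate 3 of the ILKS343D Tg hearts, no marker had an unadjusted p under 0.05 in this comparison, against 4.95% of all genes. For ILKR211A Tg against WT it was 0.19 (SE 0.13, adjusted p = 0.820).

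Mrc1 encodes CD206, the mannose receptor. Its signals were 335, 314 and 334 in ILKR211A Tg hearts and 341, 381 and 354 in ILKS343D Tg hearts, against 284, 312 and 354 in WT hearts. The ILKS343D Tg hearts all lay above the ILKR211A Tg hearts. Its log2 fold change was 0.037 for ILKR211A Tg against WT (adjusted p = 0.963), 0.17 for ILKS343D Tg against WT (SE 0.08, adjusted p = 0.995) and -0.13 for ILKR211A Tg against ILKS343D Tg (SE 0.09, adjusted p = 0.757).

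Cx3cr1 encodes the fractalkine receptor of monocytes and many resident macrophages. Its signals were 50.6, 34.9 and 44.9 in ILKR211A Tg hearts and 36.6, 62.9 and 80.6 in ILKS343D Tg hearts, against 30.9, 37.2 and 62.1 in WT hearts. These signals lie near the filter (43.5), and the SD over 12 hearts, 0.43 on the log2 scale, was higher than for the other 9 markers. Mean signals were 43.46 in ILKR211A Tg, 60.0 in ILKS343D Tg and 41.9 in WT hearts. Among the genotypes, only the ILKS343D Tg mean was above the filter (43.53), so the difference of that line is given as a description. The log2 fold change was 0.076 for ILKR211A Tg against WT (SE 0.27, adjusted p = 0.982) and 0.48 for ILKS343D Tg against WT (SE 0.27, 95% limits -0.09 to 1.06, adjusted p = 0.995), or 0.24 against the WT first set alone.

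**Figure D2:**
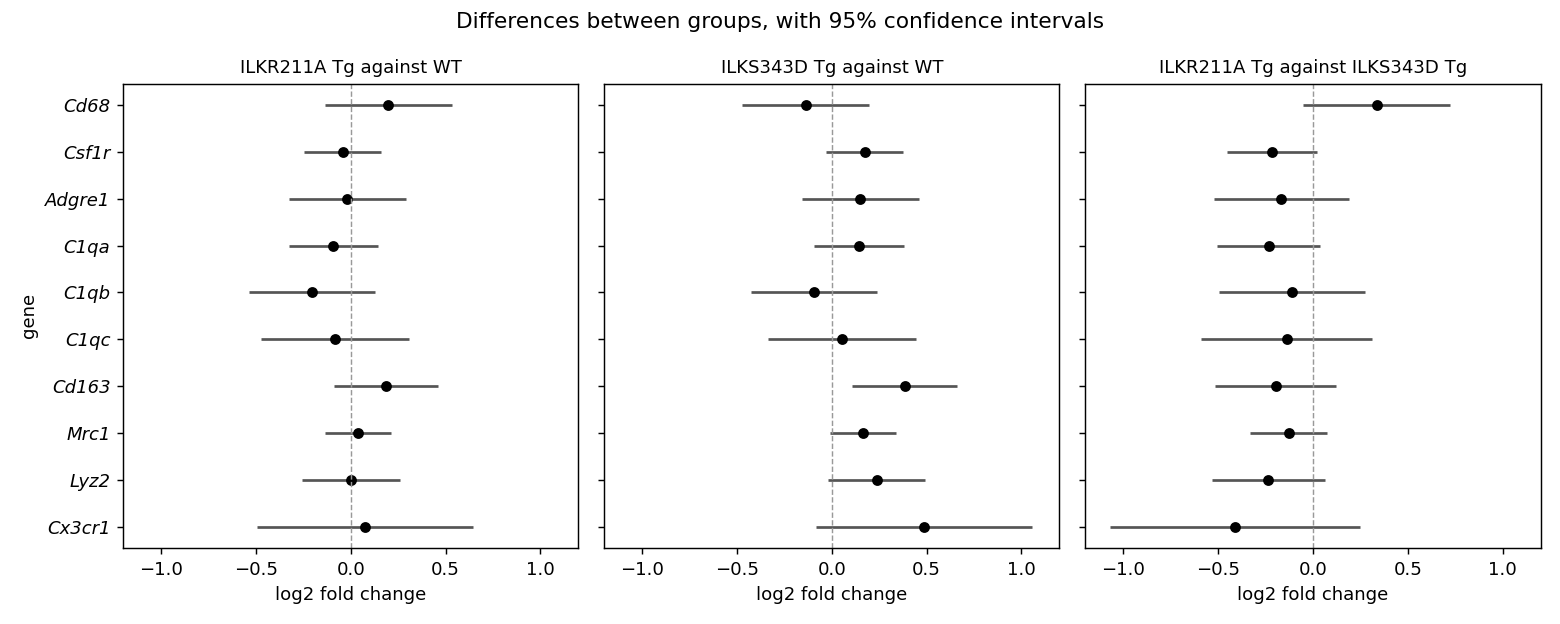
Log2 fold change (points) and 95% confidence interval (lines) of each marker gene for ILKR211A Tg against WT, ILKS343D Tg against WT and ILKR211A Tg against ILKS343D Tg hearts. The interval of Cd163 in ILKS343D Tg against WT hearts (0.11 to 0.66) lies above 0, and the other 29 cross 0.

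The WT sets share a genotype and differ in heart numbers. The WT first set had higher mean signals than the WT second set for 9 of 10 markers, with a median log2 fold change of 0.14 (all genes 0.011). None was called, against 0.0179% of all genes, and 1 of 10 had an unadjusted p under 0.05, against 7.25%. That gene was Lyz2, with a log2 fold change of 0.27 (SE 0.12, adjusted p = 0.612). Without replicate 3 of the WT first set, the median was 0.28 and 6 of 10 markers had an unadjusted p under 0.05, against 8.73% of all genes in the same fit. That was the highest count with 1 heart left out (0 to 6). Without replicate 1 or 2 of that set, the medians were 0.065 and 0.088. The counts were then 0 of 10 each, against 6.06% and 6.78% of all genes. The markers were correlated over the hearts, so these counts are not of independent genes.

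The Tg comparisons depended on which WT hearts were used. ILKR211A Tg hearts had a median log2 fold change of 0.081 against the WT second set, which shares their heart numbers, and -0.13 against the WT first set. For ILKS343D Tg hearts the median was 0.096 against the WT first set, which shares theirs, and 0.21 against the WT second set. In the latter fit 5 of 10 markers had an unadjusted p under 0.05, against 5.6% of all genes. The 5 were Csf1r, Cd163, Mrc1, Lyz2 and Cx3cr1, which are not independent because the markers were correlated. Cx3cr1 had a mean above the filter only in the ILKS343D Tg genotype, so its place in that count is a description. The difference between the lines within their own ranges had a median of -0.046, with 0 of 10 markers called, against 0.00894% of all genes, and 0 at an unadjusted p under 0.05, against 6.88%. C1qc, Lyz2 and Cx3cr1, lower in ILKR211A Tg than in ILKS343D Tg hearts without regard to range, had differences of 0.20, 0.038 and 0.076 in that test. For Cd68 it was 0.51 (SE 0.26, adjusted p = 0.731).

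A marker value for each heart was taken as the mean over the 10 genes of the log2 signal less the mean of that gene over 12 hearts, as a description. It was -0.12, 0.030 and -0.017 in ILKR211A Tg hearts, -0.082, 0.25 and 0.18 in ILKS343D Tg hearts, 0.22, 0.19 and -0.27 in the WT first set and -0.13, -0.043 and -0.21 in the WT second set. Replicate 2 of the ILKS343D Tg hearts was above the mean for 10 of 10 genes, and replicate 3 of both WT sets for 0 of 10. The distance between the highest and lowest heart of the WT first set was thus wider than that between any group means. Genotype took 16.1% of the sum of squares of the marker value over 12 hearts and range of heart numbers 23.2%, where their degrees of freedom alone would give 18.2% and 9.09%, and the 2 factors overlap by design. Among the genes, genotype took from 3.21% (C1qc) to 58.3% (Cd163).

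**Figure D3:**
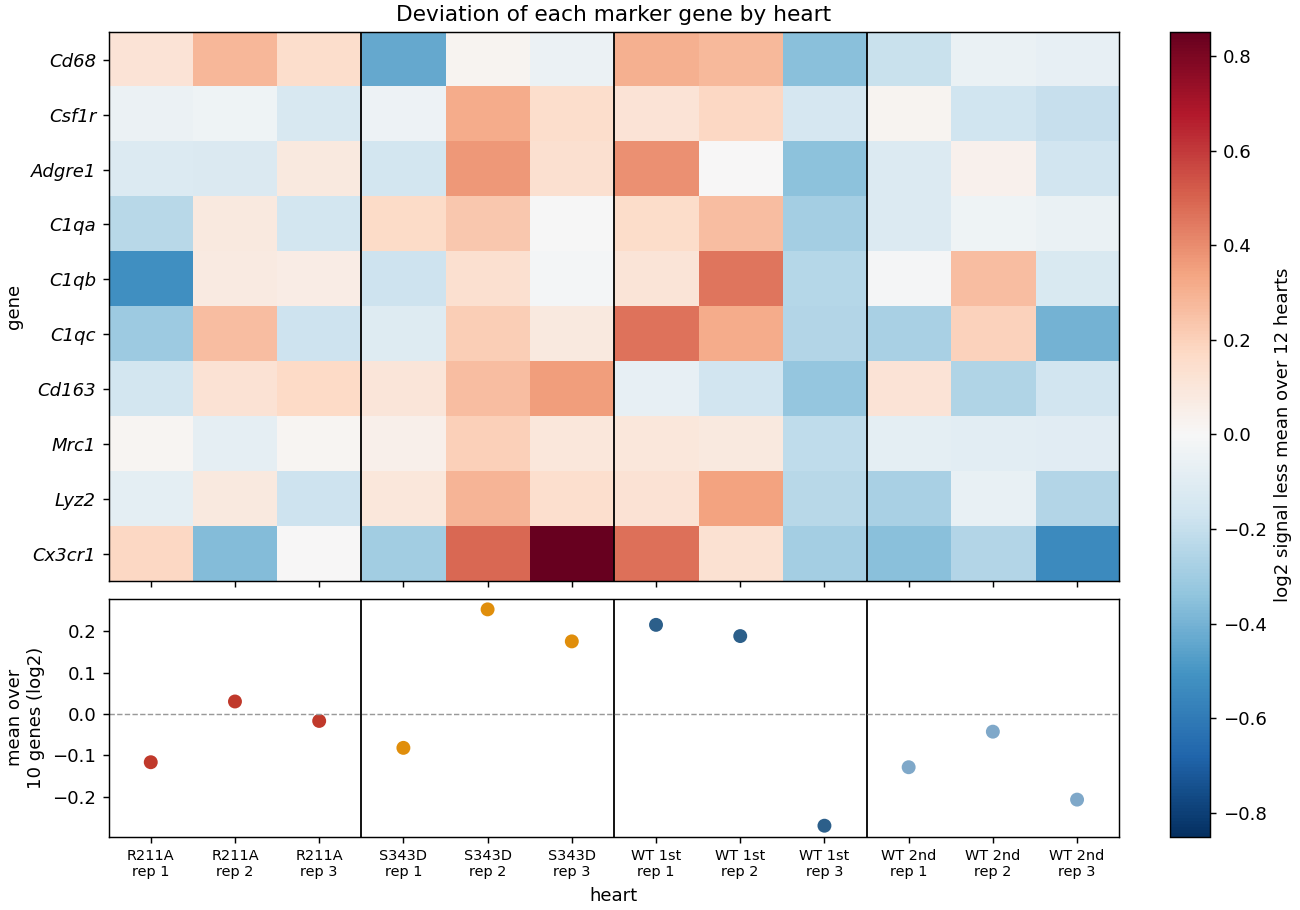
Log2 signal of each marker gene less its mean over 12 hearts (colour, upper panel) and the mean over the 10 genes (points, log2, lower panel), by heart and group. Replicate 3 of the WT first set (-0.27) is below the mean for all 10 genes and ILKS343D Tg replicate 2 (0.25) above it for all 10.

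Over the 12 hearts, Pearson's r was above 0 for all 45 pairs of markers, with a median of 0.53 (0.068 to 0.86). After adjustment over the 45 pairs, 15 had a permutation p under 0.05 for r, and 10 of them also for Spearman's rho. The highest was C1qa with Lyz2 (r = 0.859, permutation p = 0.0005, adjusted 0.0141; rho = 0.839, permutation p = 0.00113, adjusted 0.0169), and r was 0.794 without the 2 hearts farthest from the median of C1qa. Csf1r with Mrc1 had r = 0.824 (permutation p = 0.00069, adjusted 0.0141; rho = 0.846, permutation p = 0.00081, adjusted 0.0169), and 0.696 without the 2 farthest hearts. For C1qa with Lyz2, r was 0.93 among hearts 1 to 6 and 0.48 among hearts 7 to 12. For Csf1r with Mrc1 it was 0.91 and 0.11. All values of a heart come from 1 array, so anything that shifts an array is shared by its genes. Centring each array on its median gave a median r of 0.59, and deviations from group means 0.64.

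The C1q genes were among the pairs with r over 0.5 in both ranges of heart numbers. C1qa with C1qc had r = 0.745 (permutation p = 0.00713, adjusted 0.0292; rho = 0.762, permutation p = 0.00527, adjusted 0.0296), with 0.72 among hearts 1 to 6, 0.71 among hearts 7 to 12 and 0.69 without the 2 farthest hearts. C1qb with C1qc had r = 0.726 (permutation p = 0.00509, adjusted 0.0229; rho = 0.776, permutation p = 0.00411, adjusted 0.0264), with 0.81, 0.66 and 0.69 for the same 3 subsets. C1qa with C1qb did not pass (r = 0.656, permutation p = 0.0185, adjusted 0.0522; rho = 0.643, permutation p = 0.0282, adjusted 0.0845). C1qc with Lyz2, the genes of a complement chain and of lysozyme, had r = 0.795 (permutation p = 0.00293, adjusted 0.0188; rho = 0.804, permutation p = 0.00231, adjusted 0.0208), with 0.73, 0.82 and 0.80 for these subsets. Cd163 had the lowest correlation with the mean of the other 9 markers (r = 0.41) and Mrc1 the highest (0.85), given as descriptions.

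Most pairs were less correlated among hearts 7 to 12. The median r was 0.72 among hearts 1 to 6, where 38 pairs were over 0.5, and 0.13 among hearts 7 to 12, where 9 were over 0.5 and 13 were below 0. There were 9 pairs over 0.5 in both. C1qa with Mrc1 had r = 0.87 among hearts 1 to 6 and -0.72 among hearts 7 to 12, while Mrc1 with Cx3cr1 had 0.68 and 0.94. Without replicate 3 of the WT first set the median among hearts 1 to 6 was 0.40. Whether r differs between the ranges was not tested, and line and WT set differ between them too.

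**Figure D4:**
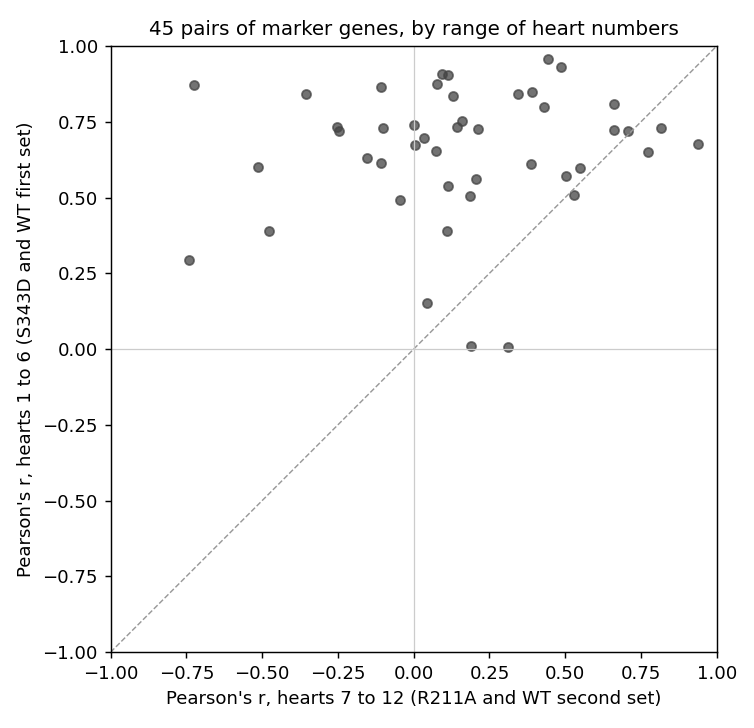
Pearson's r of the 45 pairs of marker genes among hearts 7 to 12 (horizontal axis) and hearts 1 to 6 (vertical axis), 6 hearts each, with a dashed line where both are equal. Most pairs lie above the line, with medians of 0.13 (horizontal) and 0.72 (vertical).

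Probe sets of the same gene did not follow each other closely. Over 12 hearts r was 0.121, 0.404 and 0.304 (rho -0.056, 0.336 and 0.203) among the 3 probe sets of Csf1r, 0.649, 0.483 and 0.559 (rho 0.748, 0.427 and 0.476) among the 3 of C1qb and 0.497 (rho 0.622) for the 2 of Cx3cr1. The smallest permutation p of the 7 pairs for r was 0.0215 (adjusted 0.151). In ILKS343D Tg against WT hearts the probe sets of Csf1r had log2 fold changes of 0.17, -0.010 and 0.17, and those of C1qb -0.092, 0.19 and 0.0076. In ILKR211A Tg against WT hearts those of Csf1r had -0.043, 0.14 and 0.19, and those of C1qb -0.20, -0.015 and -0.25. Between ILKR211A Tg and ILKS343D Tg hearts those of Csf1r had -0.22, 0.15 and 0.025, and those of C1qb -0.11, -0.20 and -0.26. The sign for Csf1r thus depended on the probe set. The second Cx3cr1 probe set, under the filter, had signals of 3.31, 8.24 and 5.86 in ILKR211A Tg hearts and 10.6, 25.4 and 22.3 in ILKS343D Tg hearts, against 3.42, 16.8 and 17.7 in WT hearts. The lines did not overlap, but in the fit without a filter its log2 fold change of -1.75 for ILKR211A Tg against ILKS343D Tg had an adjusted p of 0.594.

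**Figure D5:**
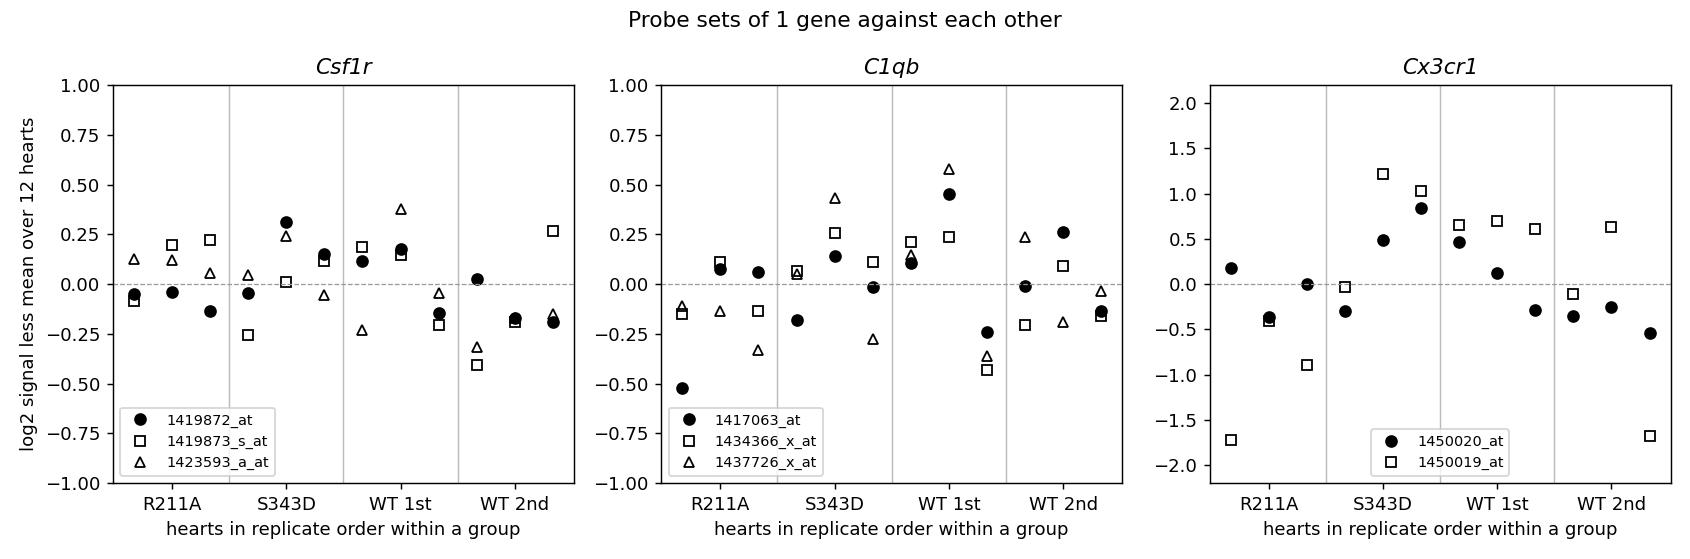
Log2 signal less the mean over 12 hearts for every probe set of Csf1r, C1qb and Cx3cr1, by heart and group, with the probe set read for the gene as filled circles. Open symbols scatter around the filled ones, and the Cx3cr1 probe set under the filter has its lowest values in ILKR211A Tg replicate 1 (signal 3.31) and WT second set replicate 3 (3.42).

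Of the 11179 other genes, the 12 most like the marker value over 12 hearts were Tyrobp (r = 0.89), Lyz1 (0.89), Ost4 (0.88), Alox5ap (0.88), Il18bp (0.86), Cybb (0.84), Ifitm2 (0.82), Parp3 (0.81), Aff3 (0.81), Ctss (0.80), Vrk2 (0.80) and Mocs2 (0.79), as a description of genes read from the same arrays. The place of Lyz1 is in part built in, since Lyz2, whose signal is uncertain between the 2 genes, enters the marker value. Tyrobp encodes the adaptor DAP12 of myeloid receptors, Alox5ap a protein needed for leukotriene synthesis, Cybb the catalytic subunit of the phagocyte NADPH oxidase and Ctss the lysosomal protease cathepsin S. Tyrobp had r = 0.89 among hearts 1 to 6 and 0.94 among hearts 7 to 12, whereas Mocs2 had 0.86 and 0.18. With arrays centred on the median 8 of the 12 were again among the first 12, and on deviations from group means 2 were, with 11 among the first 100. In all, 69 genes had r over 0.7 and 49 had r under -0.7.

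Related lists of genes were read beside the markers, with r against the marker value as a description over 12 hearts. Myeloid receptors and adaptors (20 of 28 tested) had r = 0.81, and 7 of 20 were above 0 in ILKR211A Tg hearts (median -0.055) and 13 of 20 in ILKS343D Tg hearts (median 0.11), relative to WT. Chemokines and their receptors had r = 0.76 (10 of 18 tested), lysosome genes 0.63 (14 of 17), MHC class II genes 0.56 (6 of 7), complement and its regulators 0.54 (8 of 14), monocyte genes 0.45 (4 of 9), resident heart macrophage genes 0.40 (10 of 13) and CSF1R ligands, signalling and macrophage transcription factors 0.40 (10 of 15). Inflammatory cytokines and enzymes had 0.26 (5 of 12) and genes for the uptake of dying cells 0.12 (12 of 15). The resident genes had 2 of 10 above 0 in ILKR211A Tg hearts (median -0.12) and 6 of 10 in ILKS343D Tg hearts (median 0.045). MHC class II genes had summed signals of 2495 to 3071 in ILKR211A Tg hearts and 2893 to 5246 in ILKS343D Tg hearts, against 1734 to 4784 in WT hearts. Fibroblast markers had r = 0.37 and cardiomyocyte markers -0.48, and their part in the marker values was not tested.

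Of 217 genes on 24 lists, 136 were tested, and 1 was called in ILKR211A Tg against WT hearts and 0 in the other 4 comparisons. The gene was Fcgr2b, the inhibitory Fc receptor for IgG. Its signals were 241, 329 and 246 in ILKR211A Tg hearts and 439.9, 372 and 437 in ILKS343D Tg hearts, against 347 to 456 in WT hearts. The ILKR211A Tg hearts lay below all others. Fcgr2b had a log2 fold change of -0.60 against WT (SE 0.11, adjusted p = 0.0485) and -0.62 against ILKS343D Tg (adjusted p = 0.101). Its 3 other tested probe sets had -0.47, -0.38 and -0.26 against WT (adjusted p = 0.520, 0.711 and 0.849), and the call held in 8 of 28 alternatives (adjusted p 0.0146 to 0.286). With hearts paired by replicate number within each range it was lost (log2 fold change -0.57, adjusted p = 0.0839), and the difference between the lines within their ranges was -0.58 (SE 0.19, adjusted p = 0.564). Fcgr2b lies on chromosome 1 among other called genes. In a window of 101 tested genes centred on it in gene order, 5 were called (Hsd17b7, Uap1, Atf6, Fcgr2b and Mndal). On the chromosome 7 of 641 were called, and 23 of 11174 in all. Each of these counts includes Fcgr2b, and the window was placed on it because it was called. The part of chromosomal position in the Fcgr2b difference was not tested.

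Some other genes of these lists are given with their values, and none of them passed the adjustment. Irf8, a transcription factor of the myeloid lineage, had mean signals of 68.3 ± 10.9 in ILKR211A Tg hearts and 109 ± 13.4 in ILKS343D Tg hearts, against 76.0 ± 16.7 in WT hearts (SD, n = 3, 3 and 6), with a log2 fold change of -0.69 between the lines (SE 0.22, adjusted p = 0.405). The WT sets differed in Irf8 by 0.52 (first less second), and the difference between the lines within their ranges was -0.17 (SE 0.26, adjusted p = 0.930). On the list that holds Irf8, 4 of 10 genes were above 0 in ILKR211A Tg relative to ILKS343D Tg hearts (median -0.064). Among these were Runx1 (0.54, adjusted p = 0.588) and Cebpb (0.42, adjusted p = 0.566). Cybb had 109 ± 19.7 in ILKR211A Tg hearts and 153 ± 31.6 in ILKS343D Tg hearts, against 105 ± 26.9 in WT hearts (log2 fold change 0.56 for ILKS343D Tg against WT, adjusted p = 0.995), or 0.30 against the WT first set alone. C1s1, a protease of the C1 complex, had 205 ± 45.5 in ILKR211A Tg hearts, against 145 ± 27.97 in WT hearts (log2 fold change 0.50, SE 0.16, adjusted p = 0.413). Cfp, which encodes properdin of the alternative complement pathway, had 94.4 ± 14.4 in ILKR211A Tg hearts, against 59.8 ± 15.9 in WT hearts (log2 fold change 0.69, SE 0.25, adjusted p = 0.5005). Tek, the endothelial receptor for angiopoietins, had 541.6 ± 39.7 in ILKS343D Tg hearts, against 460.4 ± 38.9 in WT hearts (log2 fold change 0.24, SE 0.08, adjusted p = 0.995). The endothelial list as a whole had 2 of 5 genes above 0 in that comparison, with a median of -0.025. Cd209f, a lectin gene on the resident macrophage list, had 54.1 ± 15.0 in ILKR211A Tg hearts, against 80.6 ± 5.54 in ILKS343D Tg hearts (log2 fold change -0.62, SE 0.22, adjusted p = 0.462).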

How the data were processed

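The authors hybridized heart RNA to Affymetrix mouse arrays and deposited MAS5 signal intensities on a linear scale; the sources used here give neither the MAS5 version nor detection calls. The table has 45101 rows and 12 arrays. After removal of 64 array controls, signals were taken to log2 with nothing added, and probe sets whose mean log2 signal reached the median over probe sets of 5.44 (a signal of 43.5) were tested. Of the probe sets, 34945 have 1 gene in the platform table, 932 have several and 9160 have none. The probe set with the highest mean stands for a gene.

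Comparisons used limma 3.58.1 (R 4.3.3) with 3 genotypes over all 12 arrays, empirical Bayes with a trend, two-sided tests and Benjamini-Hochberg adjustment over all tested probe sets, called at 0.05. The WT sets, and the difference between the lines within their ranges, used 4 groups. Exact permutation tests ran over all 84 splits of 3 against 6 hearts or 20 of 3 against 3. Correlations used 100000 permutations (Python 3.11.15, SciPy 1.17.1, matplotlib 3.10.9). The code was tested on simulated data. Precision is limited by how few arrays there are.

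The marker genes, lists and tests were chosen with earlier results of these data known. Named genes are the 10 markers with all their probe sets, genes among the 4 with the smallest p in each list and comparison, the 12 most like the marker value, Ilk and sex-linked genes. Deviations from group means of same-numbered hearts had r of 0.12 to 0.18 in the 3 pairs of ILKR211A Tg with WT second set hearts, 0.071 to 0.21 in the 3 of ILKS343D Tg with WT first set hearts and -0.20 to -0.0081 in the 12 across ranges. Pairs with different numbers in the same range had r of -0.16 to 0.0016 among hearts 1 to 6 and -0.13 to -0.028 among hearts 7 to 12. Same-numbered hearts of a range also carry consecutive heart numbers. A limit of 0.1 was passed by 3 of 3 same-numbered pairs among hearts 7 to 12 and 2 of 3 among hearts 1 to 6. It was also passed by 5 of 36 pairs with different numbers, all across ranges (r up to 0.13). The deviations of the 3 hearts of a group sum to 0, so these values of r are not independent of each other. The labels do not name pairs (1 ILKS343D Tg title has no number). The main fit uses no pairing, and a replicate block within each range was added after seeing the data. Alternatives changed scaling, offset, filter, probe set choice, the variance model, the arrays and WT set used, blocks and the threshold, or left out 1 heart.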

Additional observations from a re-analysis of the deposited data

Results flagged for a closer look

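Each of the 15 probe sets and the marker value was checked for a heart far from the others among the 6 WT hearts, 16 checks in all. For the second Cx3cr1 probe set, which is under the filter on low values, replicate 3 of the WT second set stood apart with a signal of 3.42, and the next heart had 10.1. The gap was 0.658 of the range of the group on the log2 scale. Chance gives such a gap in about 1 of 20 groups. No cause was tested.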

How the results depend on the processing

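No marker gene was called in any of the 5 comparisons under any alternative, and the smallest adjusted p was 0.220 (WT first set against WT second set, 1 heart left out). The median log2 fold change ran from -0.13 (WT first set alone) to 0.081 (WT second set alone, or either block by range) for ILKR211A Tg against WT, from 0.096 to 0.21 for ILKS343D Tg against WT and from -0.20 to -0.046 for ILKR211A Tg against ILKS343D Tg. Without 1 heart these medians ran from -0.050 to 0.052, 0.089 to 0.23 and -0.24 to -0.11. With 1 replicate block over all hearts 0 markers were called in each comparison (smallest adjusted p = 0.788, 0.996 and 0.595 in the first 3) and 2 had an unadjusted p under 0.05 for ILKS343D Tg against WT, against 3.74% of all genes. With the replicate block within each range, chosen after seeing the data, 0 were called (smallest adjusted p = 0.655, 0.649 and 0.573), and 0, 1 and 0 had an unadjusted p under 0.05, against 9.63%, 7.53% and 9.74% of all genes; it changed no marker's call, and ended that of Fcgr2b (adjusted p = 0.0839). By exact permutation 1 marker had p under 0.05 for ILKS343D Tg against WT, and 0 to 1 without 1 heart. The median r of the pairs over all hearts was 0.46 to 0.61 without 1 heart. Within hearts 7 to 12 it was 0.13, and -0.028 to 0.23 without 1 heart of that range. The cause of the lower value in that range was not tested.

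Signs of uncalled log2 fold changes turned in 26 of 460 other fits and 16 of 360 with 1 heart left out. Many of those fits could not turn a sign, so the shares are low in part by design. Changes of the filter, the empirical Bayes step or the threshold left log2 fold changes as they were. So did the use of only the arrays compared and the replicate block over all hearts. Leaving out a heart of a genotype not compared also changed none. For ILKR211A Tg against WT, the mean over probe sets gave 0.097 for Csf1r; the WT second set alone, the range block and the replicate block within ranges gave 0.0377 for Csf1r, 0.0316 for Adgre1 and 0.0854 for C1qc. Array median centring gave 0.0176 and array weights 0.0313 for Adgre1, and quantile normalization gave -0.0132 for Lyz2. The WT first set alone gave -0.00209 for Mrc1, -0.135 for Lyz2 and -0.166 for Cx3cr1. For ILKS343D Tg against WT, the mean over probe sets gave 0.0343 for C1qb, and the WT first set alone and these blocks gave -0.115 for C1qc. For ILKR211A Tg against ILKS343D Tg, these blocks gave 0.200 for C1qc, 0.0382 for Lyz2 and 0.0759 for Cx3cr1. Without 1 heart, ILKR211A Tg against WT ran from -0.0845 to 0.0675 for Adgre1, -0.251 to 0.0328 for C1qc, -0.0704 to 0.0809 for Lyz2 and -0.0419 to 0.227 for Cx3cr1; ILKS343D Tg against WT from -0.227 to 0.00452 for Cd68 and -0.0278 to 0.145 for C1qc; ILKR211A Tg against ILKS343D Tg from -0.211 to 0.0866 for C1qb.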
